A study of Mus musculus with 29 samples.

Results

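Expression of 10 nuclear receptor genes was followed across age and Gadd45b genotype in mouse hematopoietic stem cells (HSCs). They are the RXR genes Rxra, Rxrb and Rxrg, the retinoic acid receptor genes Rara, Rarb and Rarg, and 4 genes whose products pair with RXR, namely Nr1h2 (LXRβ), Nr1h3 (LXRα), Ppard (PPARδ) and Vdr (vitamin D receptor). They were taken by gene symbol from the 55376 genes counted in each library, and all 10 had enough reads to be among the 33690 genes tested. The study asked how HSC aging is altered in mice without GADD45B, a stress-induced protein linked to DNA demethylation. Its upstream analysis of changed genes predicted inhibition of RXRA and RXRB with age in both genotypes. It predicted their activation in young knockout against young wild-type HSCs. Such a prediction concerns activity, not the mRNA levels followed here. The RNA-seq libraries of HSCs analysed here were 4 from young wild-type mice (YWT), 4 from old wild-type mice (OWT), 4 from young mice labelled Gadd45KO (YKO) and 7 from old mice labelled Gadd45KO (OKO). The study used further OWT and YKO libraries, which were not analysed here. The labels give no age beyond young and old and no agent. The study names a knockout mouse strain and no tissue-specific driver. The labels do not say that each library came from a separate mouse, so p-values measure the spread between libraries, some of which may be technical.

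Between 22197555 and 77970627 reads per library were assigned to genes. Levels are given as CPM, read counts scaled to library size, after TMM normalization, and levels of different genes are compared as RPKM, the CPM per 1000 bases of exon. Group names follow the labels throughout, and 2 checks went against them. Gadd45b itself was at 7.34 to 17.5 CPM in YWT, 10.1 to 15.5 in OWT, 5.14 to 14.3 in YKO and 2.84 to 6.94 in OKO. The libraries labelled YKO1 and YKO2, at 12.7 and 14.3 CPM, lay within the YWT range, so the receptor genes and the main pathway results that rest on YKO were also computed without them. All 19 libraries are labelled female, but 7 of them (YWT3, YWT4, OWT2, YKO3, YKO4, OKO1 and OKO5) held over 1000 reads on 4 Y-linked genes. The study says that it used both sexes, and its table of libraries, read for YWT, YKO and OKO, differs from the Y-linked reads in YWT1, YWT3 and OKO2. That table and the 2 forms of library title put YWT, YKO and OKO1 to OKO3 in batch 1, and OWT and OKO4 to OKO7 in batch 2, without saying what a batch shared. Age and batch therefore cannot be told apart in OWT versus YWT, whereas YKO versus YWT lies within batch 1. All 8 HSC markers were detected in each library, with a summed level of 1995 to 4186 CPM. Group medians of this sum were 2718 in YWT, 3546 in OWT, 2386 in YKO and 2440 in OKO. Markers of other cell types differed between the groups: the 8 erythroid markers summed to 1609 to 4693 CPM in YKO against 35.6 to 2509 in OKO, and the 8 B cell markers to 197 to 1559 in YKO (1559 in YKO2 and 859 in YKO1) against 29.0 to 245 in OKO. The 9 granulocyte markers summed to 609 to 897 CPM in OWT against 211 to 404 in YWT, and the erythroid markers to 661 to 2030 in YWT. Fewer cells of a type and less RNA per cell cannot be told apart in such bulk samples.

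RXR proteins bind DNA as heterodimers with other nuclear receptors. With a RAR partner they sense retinoic acid, with LXR they sense oxysterols, with PPARδ fatty acids and with VDR the active form of vitamin D. These dimers sit on direct repeats of a short half-site, whose spacing favours one partner over another, and recruit corepressors or coactivators depending on the ligand. Retinoic acid signaling is known to help keep HSCs in their dormant state, with Rarb and the retinoic acid hydroxylase gene Cyp26b1 both active there.

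Promoter sequences were searched for such direct repeats, because Rarb and Cyp26a1 are textbook genes that retinoic acid induces through their own promoters. RefSeq windows of 300 bases (250 before and 50 after a transcription start, GRCm38.p6) were scanned on both strands for pairs of the half-sites GGTCA and GTTCA, in any combination, with the repeat spacings DR1 to DR5. DR5, for example, was searched as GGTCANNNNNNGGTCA, GGTCANNNNNNGTTCA, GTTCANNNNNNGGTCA or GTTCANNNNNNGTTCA, since the first base of a half-site of 6 was left free. All 10 receptor genes had windows (18 in all), and the 9 pathway lists described further on had 77. DR1 to DR4 were found in 0 of these windows, and DR5 was found in 1 window of Rarb and 1 of Cyp26a1. Among all 32851 windows the shares were 0.402% for DR1, 0.399% for DR2, 0.161% for DR3, 0.207% for DR4 and 0.247% for DR5. The 250 bases before the start are shown for both genes, on the strand of the gene, with the DR5 letters in capitals. The Rarb window is chr14:16575477-16575726 on the minus strand, and its match begins 53 bases before the start. The Cyp26a1 window is chr19:37697558-37697807 on the plus strand, and its match lies on the opposite strand and begins 32 bases before the start.
Rarb: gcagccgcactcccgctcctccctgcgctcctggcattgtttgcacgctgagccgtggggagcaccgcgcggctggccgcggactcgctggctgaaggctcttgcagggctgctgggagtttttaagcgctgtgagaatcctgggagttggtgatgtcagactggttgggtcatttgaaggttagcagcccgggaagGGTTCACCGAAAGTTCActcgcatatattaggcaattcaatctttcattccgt
Cyp26a1: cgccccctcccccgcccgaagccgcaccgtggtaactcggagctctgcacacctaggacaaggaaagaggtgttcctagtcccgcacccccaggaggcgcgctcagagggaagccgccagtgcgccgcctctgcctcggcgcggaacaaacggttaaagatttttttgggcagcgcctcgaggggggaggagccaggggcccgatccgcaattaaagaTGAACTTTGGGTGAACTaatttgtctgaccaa
A match describes the letters of the window and does not show that a receptor binds there. Rarb (chromosome 14, 16430839 to 16819156 of mm10, minus strand) was read at 97 to 3393 counts per library, whereas Cyp26a1, a retinoic acid hydroxylase gene like Cyp26b1, had at most 30.

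The 10 receptor genes differed widely in level, and the order at the top and at the bottom was the same in each library. The mean over the 19 libraries was 31.2 RPKM for Nr1h2, 22.0 for Rxrb and 12.1 for Vdr, and in each of the 19 libraries these 3 stood in that order, with Vdr above Rarb. Rarb (5.14 RPKM), Rxra (4.30), Rarg (4.24), Rara (3.20) and Nr1h3 (2.93) formed a middle tier whose internal order was not stable. Rarb lay above Rxra in 11 of the 19 libraries, Rxra above Rarg in 8, Rarg above Rara in 15 and Rara above Nr1h3 in 9. Nr1h3 lay above Ppard (0.380 RPKM), and Ppard above Rxrg (0.0981 RPKM), in 19 of the 19. Rxrg rested on 0 to 39 counts per library, so its differences are poorly measured.

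Within each receptor family 1 gene or a changing mix supplied the length-scaled reads. Rxrb made up 75.6 to 90.2% of the summed RPKM of the 3 RXR genes in a library, Rxra 9.28 to 24.4% and Rxrg 0 to 1.48%. Nr1h2 made up 84.1 to 96.5% of the LXR pair and Nr1h3 the rest, 3.46 to 15.9%. The 3 RAR genes had no fixed leader: Rara ranged from 13.7 to 58.5%, Rarb from 13.4 to 62.1% and Rarg from 23.7 to 50.9%. In YKO the Rara share averaged 41.1% ± 16.8 (SD, n = 4) and the Rarb share 27.6% ± 15.7, against 25.3% ± 5.62 and 36.8% ± 6.83 in YWT (n = 4). The Rarb share was 42.5% ± 8.75 in OWT (n = 4) and 45.6% ± 13.0 in OKO (n = 7). The highest Rara shares of all were those of the libraries labelled YKO1 and YKO2, and in YKO3 and YKO4 alone the Rara share averaged 27.2% and the Rarb share 41.1%.

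**Figure D1:**
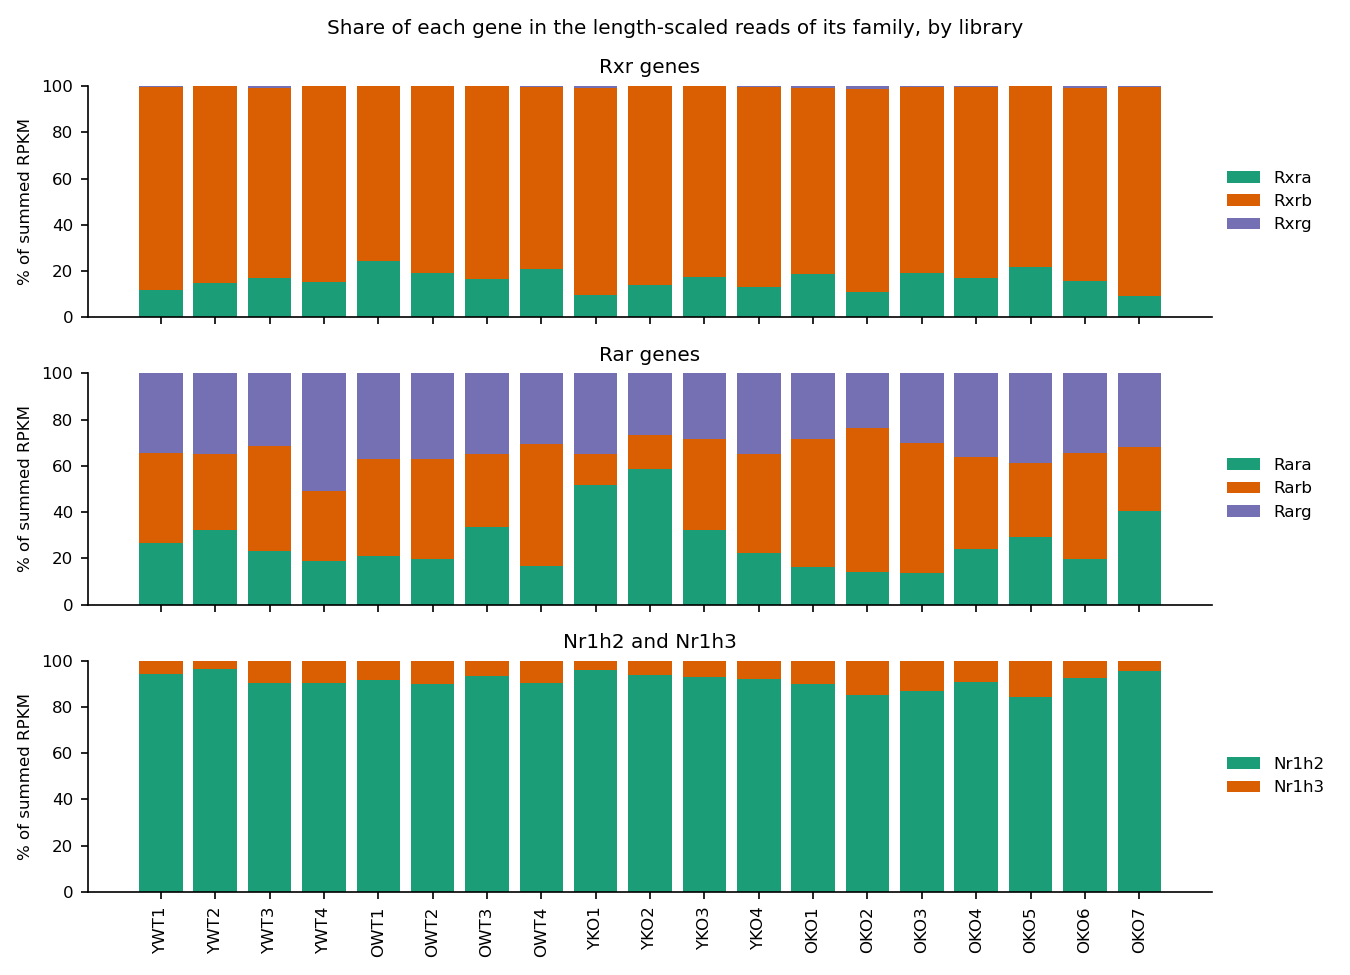
Stacked bars give, for each of the 19 libraries, the share of each gene in the summed RPKM of its family (RXR, RAR and LXR panels, percent). Rxrb and Nr1h2 fill most of their bars in each library, whereas the 3 RAR genes change places, with Rara shares from 13.7 to 58.5%.

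Spread between libraries of the same group also differed by gene. As the SD of log2(CPM + 1) within groups it was 0.70 for Rarb, 0.55 for Nr1h3, 0.50 for Vdr, Rxra and Rara, 0.42 for Rarg, 0.33 for Ppard, 0.32 for Nr1h2, 0.29 for Rxrb and 0.21 for Rxrg, the last at a level near 0. The 2 abundant receptors Nr1h2 and Rxrb thus varied least between libraries of a group among the well-read genes, and Rarb most. In OKO this spread includes differences between batches.

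**Figure D2:**
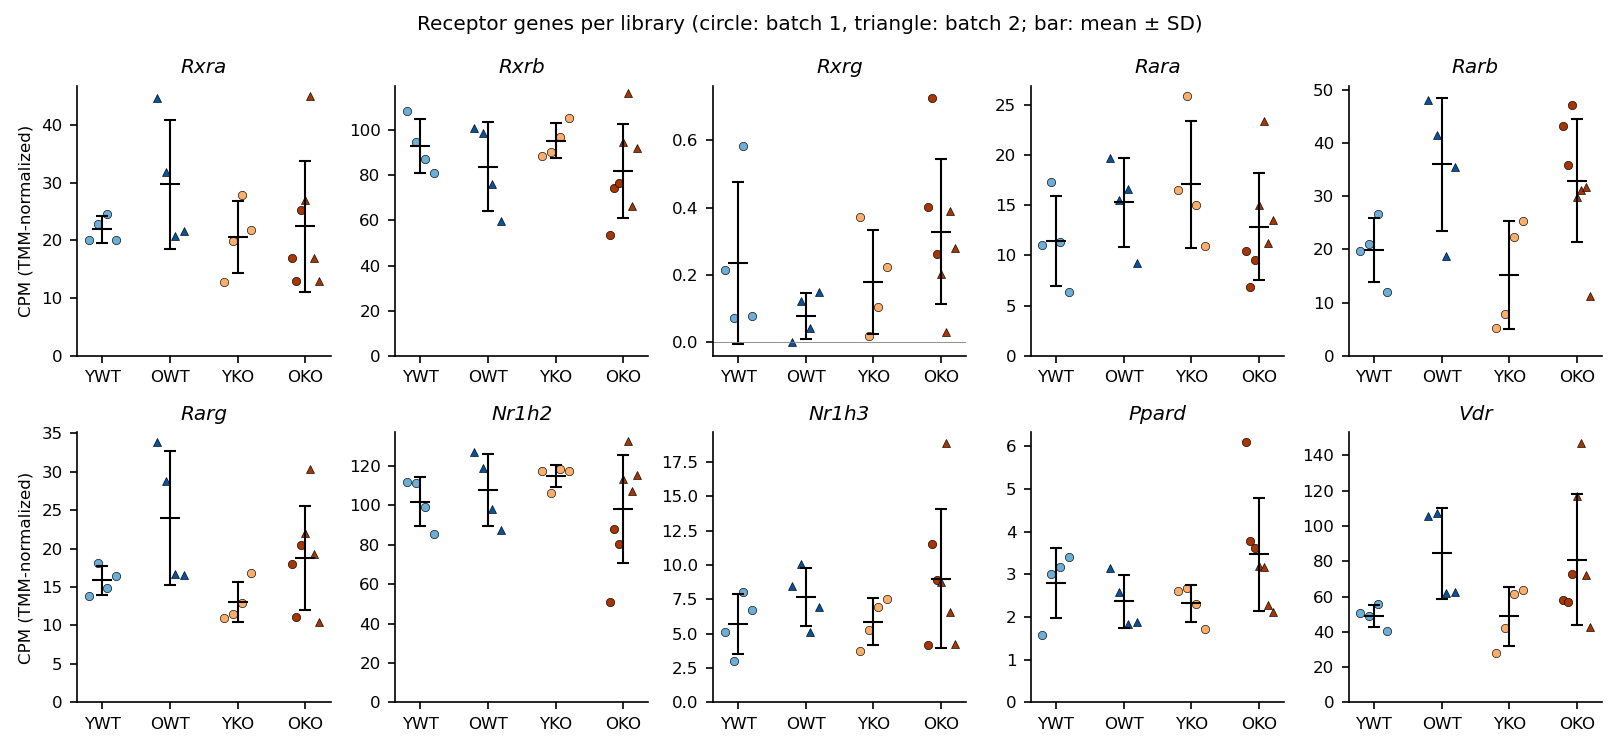
Each panel gives the TMM-normalized CPM of a receptor gene in the 19 libraries (circles batch 1, triangles batch 2), with the mean and SD of each group as a bar. Vdr is the gene in which all 4 OWT libraries (61.8 to 107 CPM) sit above all 4 YWT libraries (40.5 to 55.5 CPM).

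Aging was examined first in wild-type HSCs. Vdr was at 50.9, 48.8, 55.5 and 40.5 CPM in YWT and at 106, 107, 61.8 and 62.5 CPM in OWT. Each of the OWT values exceeded each of the YWT values, with OWT1 and OWT2 far above the other pair. The log2 fold change was 0.79 (SE 0.33, unadjusted p = 0.0278), and the adjusted p over all tested genes was 0.9999 (edgeR quasi-likelihood test, Benjamini-Hochberg). Rarb was at 19.7, 21.1, 26.6 and 12.0 CPM in YWT and 48.0, 41.6, 18.7 and 35.5 CPM in OWT. Of the OWT libraries 3 exceeded all of YWT and OWT3 fell among them. Rarb differed by a log2 fold change of 0.86 (SE 0.43, adjusted p = 0.9999). Rarg, the RAR linked to HSC self-renewal, was at 13.9 to 18.1 CPM in YWT and 16.6 to 33.9 in OWT, with 2 OWT libraries above all of YWT. Its log2 fold change was 0.60 (SE 0.30, adjusted p = 0.9999).

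The RXR genes themselves showed no called difference with age in WT. Rxra was at 20.0, 22.8, 24.6 and 20.0 CPM in YWT and at 44.6, 31.9, 20.8 and 21.5 CPM in OWT, so that 2 OWT libraries lay above YWT and 2 within it. Rxrb was at 109, 94.7, 87.1 and 81.0 CPM in YWT and 101, 98.5, 76.1 and 59.7 CPM in OWT. The log2 fold change was 0.44 for Rxra (95% interval -0.27 to 1.16) and -0.15 for Rxrb (-0.61 to 0.32). In the most read LXR gene, Nr1h2, it was 0.08 (-0.40 to 0.56). Nr1h3 (0.42), Rara (0.41) and Ppard (-0.24) also had intervals that spanned 0, and Rxrg, at 0 to 9 counts in OWT and 3 to 37 in YWT, had -1.58 (SE 1.05).

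Genes were called where the adjusted p was under 0.05 and the fold change over 1.5, and counts for edgeR refer to the fit of all 19 libraries without covariates unless another is named. In OWT versus YWT 0 of the 10 receptor genes were called by edgeR, against 0.00297% of all tested genes, and DESeq2 also called 0. At an unadjusted p under 0.05 there was 1 (Vdr), against 4.38% of all tested genes, and the 1 gene without overlap compares with 4.13% over all. The median log2 fold change was 0.42 over the 10 genes, 7 of them positive, and -0.05 over all tested genes. The batches differ here, and with batch as a covariate, a fit that rests on the OKO libraries alone, the value of Vdr was 0.19 and that of Rarb 1.56 (adjusted p = 0.843 and 0.230). OWT1 and OWT2, the OWT libraries with the highest Vdr, Rarb, Rarg and Rxra, also had the highest granulocyte marker sums (897 and 881 CPM). Their HSC marker sums were the highest as well (4156 and 4186 CPM, against 2788 and 2936 in OWT3 and OWT4). The part of these markers in the differences was not tested.

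The same question in knockout HSCs, OKO versus YKO, again gave its highest estimates in Rarb and Vdr, leaving aside the barely read Rxrg. Rarb was at 5.16, 7.96, 22.2 and 25.3 CPM in YKO and at 11.2 (lowest), 31.8 (median) and 47.2 CPM (highest) in OKO. The OKO libraries exceeded all of YKO in 6 of 7 cases, with OKO7 the exception, and YKO1 and YKO2 lay far below YKO3 and YKO4. The log2 fold change was 1.11 (SE 0.40, unadjusted p = 0.0108), and the adjusted p was 0.168. Vdr was at 27.8, 42.4, 61.3 and 63.6 CPM in YKO and 43.0 (lowest), 71.9 (median) and 147 CPM (highest) in OKO, with 4 of 7 OKO libraries above all of YKO. Its log2 fold change was 0.73 (SE 0.30, unadjusted p = 0.0247) and its adjusted p 0.238.

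Of the other partner receptors, Rarg was at 10.97 to 16.8 CPM in YKO and 10.4 to 30.4 in OKO, with a log2 fold change of 0.53 (SE 0.27, adjusted p = 0.346). Nr1h3 was at 3.73 to 7.51 CPM in YKO and 4.19 to 18.9 in OKO (log2 fold change 0.62, SE 0.37). Ppard was at 1.71 to 2.67 CPM in YKO and 2.13 to 6.10 in OKO, with 5 of 7 OKO libraries above all of YKO (0.58, SE 0.32). Rara went the other way in its estimate, at 10.97 to 25.9 CPM in YKO and 6.84 to 23.3 in OKO (-0.41, 95% interval -1.05 to 0.23). The main RXR and LXR genes had 95% intervals that spanned 0 over both OKO batches. Of the 7 OKO libraries, 4 lay below all of YKO in Rxrb and 3 in Nr1h2, and 1 lay above all of YKO in each. Rxrb was at 88.4 to 105 CPM in YKO and 53.4 to 116 in OKO (-0.22, -0.63 to 0.19), Nr1h2 at 107 to 118 and 50.8 to 133 (-0.23, -0.65 to 0.20), and Rxra at 12.8 to 27.9 and 12.9 to 45.0 (0.12, -0.51 to 0.76). Rxrg stood at 1 to 13 counts in YKO and 2 to 39 in OKO (0.92, SE 0.95).

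In OKO versus YKO 0 of the 10 receptor genes were called by edgeR against 1.29% of all tested genes, and 2 (Rarb and Vdr) were below an unadjusted p of 0.05 against 15.8%. DESeq2 called those 2, Rarb at 1.21 (adjusted p = 0.0217) and Vdr at 0.78 (adjusted p = 0.0495), with 6.3% of all genes called. Over the 10 genes the median log2 fold change was 0.55, with 7 positive, and over all tested genes it was 0.23. All 10 genes had YKO and OKO libraries that overlapped, and 2.6% of tested genes did not.

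The OKO libraries came from 2 batches, and the edgeR calls of 3 receptor genes depended on which were used. With OKO1 to OKO3, of the same batch as YKO, Rarb averaged 42.1 CPM ± 5.72 (SD, n = 3), and against YKO its log2 fold change was 1.53 (adjusted p = 0.0209). Ppard (1.02, adjusted p = 0.0496) and Nr1h2 (-0.59, adjusted p = 0.0413) were also called in that fit, in which 17.9% of all genes were called and the median gene stood at 0.54. The OKO4 to OKO7 libraries averaged 26.0 CPM ± 9.93 for Rarb (n = 4), 117 ± 10.96 for Nr1h2 against 73.1 ± 19.7 in OKO1 to OKO3, and 94.7 ± 46.2 for Vdr against 62.6 ± 8.96. Vdr was at 0.42 (adjusted p = 0.241) in the fit within batch 1. Rxrb and Rara, not called in that fit, also differed between the OKO batches. Rxrb averaged 68.1 CPM ± 12.8 in OKO1 to OKO3 against 92.3 ± 20.4 in OKO4 to OKO7, and Rara 8.94 ± 1.87 against 15.8 ± 5.27. In both genes OKO1 to OKO3 lay below all of YKO. Without YKO1 and YKO2 the value of Rarb in OKO versus YKO was 0.50 (adjusted p = 0.491) and that of Vdr 0.39 (adjusted p = 0.541). Those are also the YKO libraries with the highest B cell marker sums. Their HSC marker sums were the lowest of YKO (2156 and 1995 CPM, against 2617 in YKO3 and in YKO4). OKO4 and OKO5, with the highest Vdr of OKO (117 and 147 CPM), had its highest HSC marker sums (3680 and 3484 CPM). The part of these markers in the Rarb and Vdr differences was not tested.

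**Figure D3:**
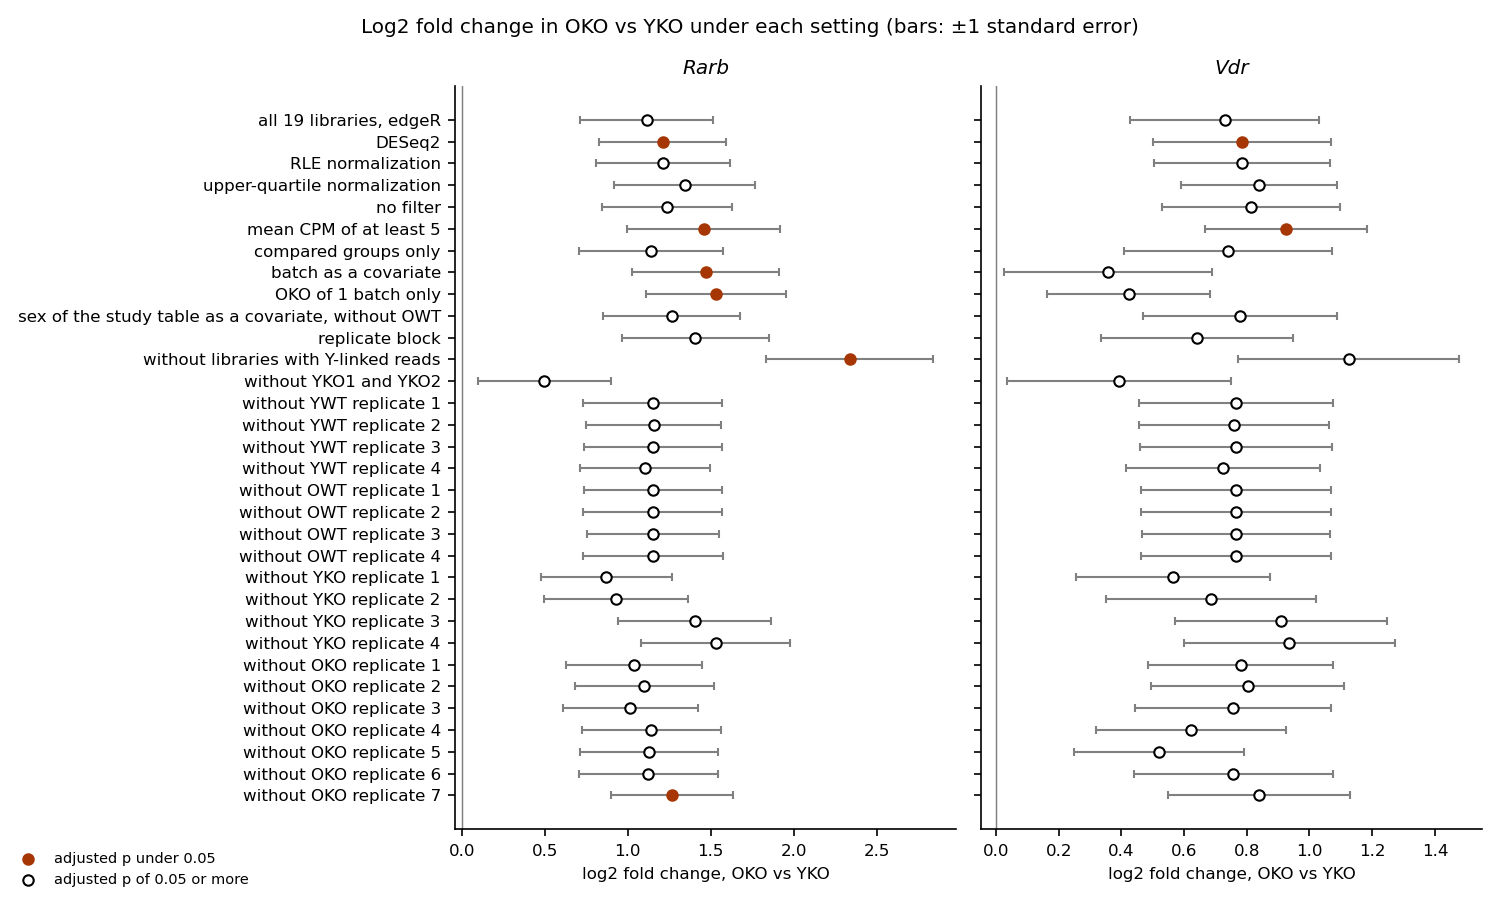
Points give the log2 fold change of Rarb and Vdr in OKO versus YKO under each way of processing (rows), with bars of 1 standard error, and filled points have an adjusted p under 0.05. All values lie above 0, from 0.50 to 2.34 for Rarb and from 0.36 to 1.12 for Vdr, and 6 of the 31 alternatives are filled for Rarb and 2 for Vdr.

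A further limit concerns Rarb alone. Of its exon length 34.1% (1793 bases) overlaps exons of Top2b on the opposite strand, and the library kit does not mark strand, so reads there could belong to either gene. Top2b, a topoisomerase gene, was lower in the OKO versus YKO estimate, at 244 to 303 CPM in YKO and 103 to 264 in OKO (log2 fold change -0.57, SE 0.21, adjusted p = 0.175, and -0.55 without YKO1 and YKO2). In OWT versus YWT it had -0.51, and in YKO versus YWT, where the Rarb estimate was negative, 0.0023. Across the 19 libraries Spearman's rho between Rarb and Top2b was -0.35, given as a description. The part of Top2b reads in the Rarb counts was not tested.

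The knockout label in young HSCs was examined in YKO versus YWT. Rara was at 10.99, 17.2, 11.3 and 6.32 CPM in YWT and 16.5, 25.9, 15.0 and 10.97 CPM in YKO. The library labelled YKO2 exceeded all of YWT and the other 3 lay within its range, with a log2 fold change of 0.58 (SE 0.36, adjusted p = 1.00), which was 0.30 without YKO2 and 0.17 without YKO1 and YKO2. Rarb was lower in the estimate, by the values above, with a log2 fold change of -0.38 (95% interval -1.28 to 0.52). YKO1 and YKO2 lay below all YWT libraries and YKO3 and YKO4 within them. Without the first pair the estimate of Rarb turned to 0.25. Nr1h2 was at 112, 111, 99.2 and 85.2 CPM in YWT and 118, 107, 118 and 118 CPM in YKO, so that 3 YKO libraries lay just above YWT (0.17, -0.31 to 0.66). The RXR genes were close in both groups, with Rxrb at 81.0 to 109 CPM in YWT and 88.4 to 105 in YKO (0.04, -0.43 to 0.50) and Rxra at 20.0 to 24.6 and 12.8 to 27.9 (-0.09, -0.80 to 0.63).

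Vdr in young HSCs was at 40.5 to 55.5 CPM in YWT and 27.8 to 63.6 in YKO (log2 fold change 0.00, 95% interval -0.69 to 0.69). Rarg (-0.28), Ppard (-0.27), Rxrg (-0.47) and Nr1h3 (0.04) had intervals that spanned 0 as well. In YKO versus YWT 0 of the 10 genes were called by edgeR, against 0.0267% of all tested genes, and 0 by DESeq2. At an unadjusted p under 0.05 there were also 0, against 4.59%. Libraries of both groups overlapped in all 10 genes, and they did not in 5.12% of all tested genes. The median log2 fold change was -0.05 over the 10 genes, with 4 positive, and -0.02 over all tested genes. The erythroid marker sums were higher in YKO than in YWT at the median (4336 against 1080 CPM), and their part in these values was not tested.

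In old HSCs the genotypes were compared as OKO versus OWT. Rxrg was at 0, 8, 2 and 9 counts in the OWT libraries and 2 to 39 in OKO, and 6 of 7 OKO libraries exceeded all of OWT in CPM (log2 fold change 2.03, SE 0.99, adjusted p = 0.592). Ppard was at 1.84 to 3.16 CPM in OWT and 2.13 to 6.10 in OKO (0.55, SE 0.32), and the 5 highest OKO libraries lay above OWT. All OWT libraries are of batch 2, and Ppard averaged 4.502 CPM ± 1.39 in OKO of batch 1 (n = 3) against 2.70 ± 0.572 in OKO of batch 2 (n = 4), whose log2 fold change against OWT was 0.21. Rxra was at 20.8 to 44.6 CPM in OWT and 12.9 to 45.0 in OKO, with 4 of 7 OKO libraries below all of OWT (-0.41, 95% interval -1.03 to 0.22). Rarg had -0.35, Rara -0.25, Nr1h3 0.24, Nr1h2 -0.13, Rarb -0.13, Vdr -0.06 and Rxrb -0.03 on the log2 scale. Of the 10 genes 0 were called by edgeR or by DESeq2, against 0.0327% of all tested genes by edgeR, and 0 had an unadjusted p under 0.05, against 8.14%. The libraries overlapped in all 10 genes, whereas 0.819% of tested genes had none that did. The median was -0.09 over the receptors and 0.12 over all tested genes.

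**Figure D4:**
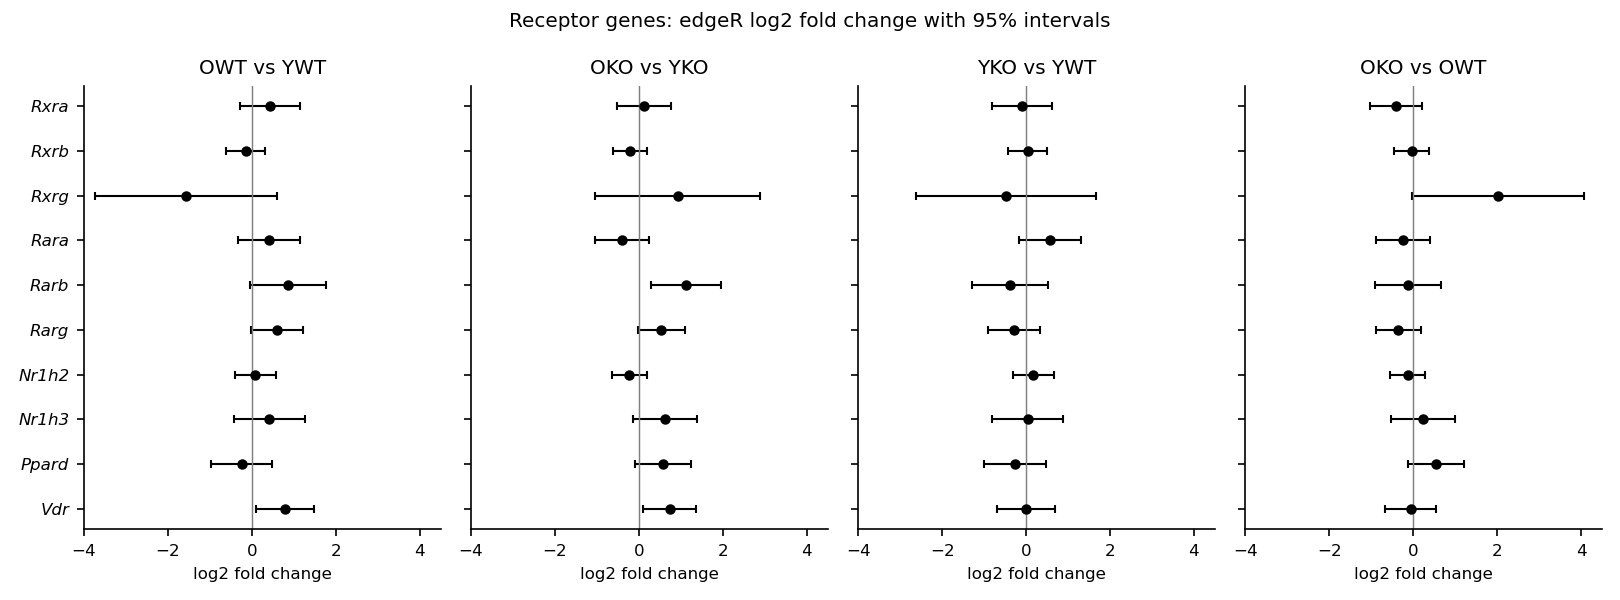
The 4 panels give the edgeR log2 fold change of each receptor gene with its 95% interval, for OWT vs YWT, OKO vs YKO, YKO vs YWT and OKO vs OWT. Vdr lies above 0 with its interval in both comparisons of old with young (0.79 and 0.73) and Rarb in OKO vs YKO (1.11), while Rxrb and Nr1h2 stay within 0.23 of 0 in all 4.

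Whether age acted differently on the receptor genes in knockout and WT HSCs was tested by the interaction of genotype and age. On the log2 scale the difference of the aging effects was -0.06 for Vdr (SE 0.44), 0.25 for Rarb (SE 0.58), -0.82 for Rara (SE 0.47), 0.82 for Ppard (SE 0.48) and 2.50 for Rxrg (SE 1.41). The smallest adjusted p among the 10 was 0.811, and 0 were called by edgeR or DESeq2. Over all tested genes edgeR called 0% and 4.62% had an unadjusted p under 0.05, a share that compares with 0 of the 10 receptors. The aging estimates of Rarb and Vdr in the 2 genotypes were therefore not shown to differ, with intervals of -0.94 to 1.45 and -0.98 to 0.86.

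The receptors act with ligand-handling enzymes, cofactors and target genes, which were followed in 9 lists of 80 genes, 77 of them tested. In OKO versus YKO 5 were called, 1 up and 4 down, beside 0.597% of all tested genes up and 0.692% down. The gene that rose was Cyp26b1, which breaks down retinoic acid. It was at 7.03, 8.77, 14.2 and 15.9 CPM in YKO and 15.8 (lowest), 42.0 (median) and 57.5 CPM (highest) in OKO. The OKO libraries exceeded all of YKO in 6 of 7 cases, OKO7 being just below YKO4. Its log2 fold change was 1.81 (SE 0.33, adjusted p = 0.00651). In WT, Cyp26b1 was at 15.3 to 22.8 CPM in YWT and 41.4 to 69.4 in OWT without overlap, with a log2 fold change of 1.47 (SE 0.35) that edgeR did not call (adjusted p = 0.261) and DESeq2 did (adjusted p = 0.00636). Without YKO1 and YKO2 the OKO versus YKO value was 1.44 (adjusted p = 0.243).

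The 4 genes that fell in OKO versus YKO belong to the lists of partner receptors and lipid targets. In each, all 7 OKO libraries lay below all 4 YKO libraries, which was so in 1.48% of all tested genes. The 4 genes were named for their calls in these same libraries, so this separation is no separate evidence. Pparg, the fat-cell PPAR and itself an RXR partner, was at 4.15 to 6.30 CPM in YKO and 0.948 to 3.02 in OKO (log2 fold change -1.57, SE 0.31, adjusted p = 0.0138). Fabp4, a fatty acid binding protein gene, was at 10.1 to 16.2 CPM in YKO and 1.26 to 4.37 in OKO (-2.42, SE 0.41, adjusted p = 0.00338). Scd1, a fatty acid desaturase gene, was at 45.8, 102, 15.2 and 10.7 CPM in YKO and 1.49 to 9.99 in OKO (-2.70, SE 0.48, adjusted p = 0.00562). Ucp2, a mitochondrial carrier gene, was at 633 to 849 CPM in YKO and 125 to 482 in OKO (-1.21, SE 0.29, adjusted p = 0.0419). The erythroid, B cell, T cell and monocyte and macrophage marker sums were also higher in YKO than in OKO at the median, 4336 against 511, 555 against 77.8, 55.2 against 13.5 and 185 against 80.6 CPM, and their part in these falls was not tested. Without YKO1 and YKO2 the values were -1.76 for Pparg, -2.41 for Fabp4, -0.93 for Scd1 and -1.11 for Ucp2, and 0 of the pathway genes were called. Single libraries decided 3 of these calls: Scd1 was not called without YKO2 (-1.77, adjusted p = 0.0548), nor Pparg without YKO3 (-1.38, adjusted p = 0.0746), nor Ucp2 without any 1 of YKO1 to YKO4, OKO2, OKO3, OKO4 or OKO6 (adjusted p from 0.0548 to 0.171). In wild-type HSCs the mean was 2.94 CPM in YWT and 2.02 in OWT for Pparg, and 5.8 and 2.18 for Fabp4. It was 20.1 and 9.94 CPM for Scd1, and 425 and 409 for Ucp2. Log2 fold changes, in that order, in OWT versus YWT were -0.54, -1.41, -1.02 and -0.05, and in YKO versus YWT 0.77, 1.17, 1.11 and 0.73. These were not called by edgeR. Of these 4 YKO versus YWT values only that of Scd1 changed sign under other settings, to -0.66 without YKO1 and YKO2.

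**Figure D5:**
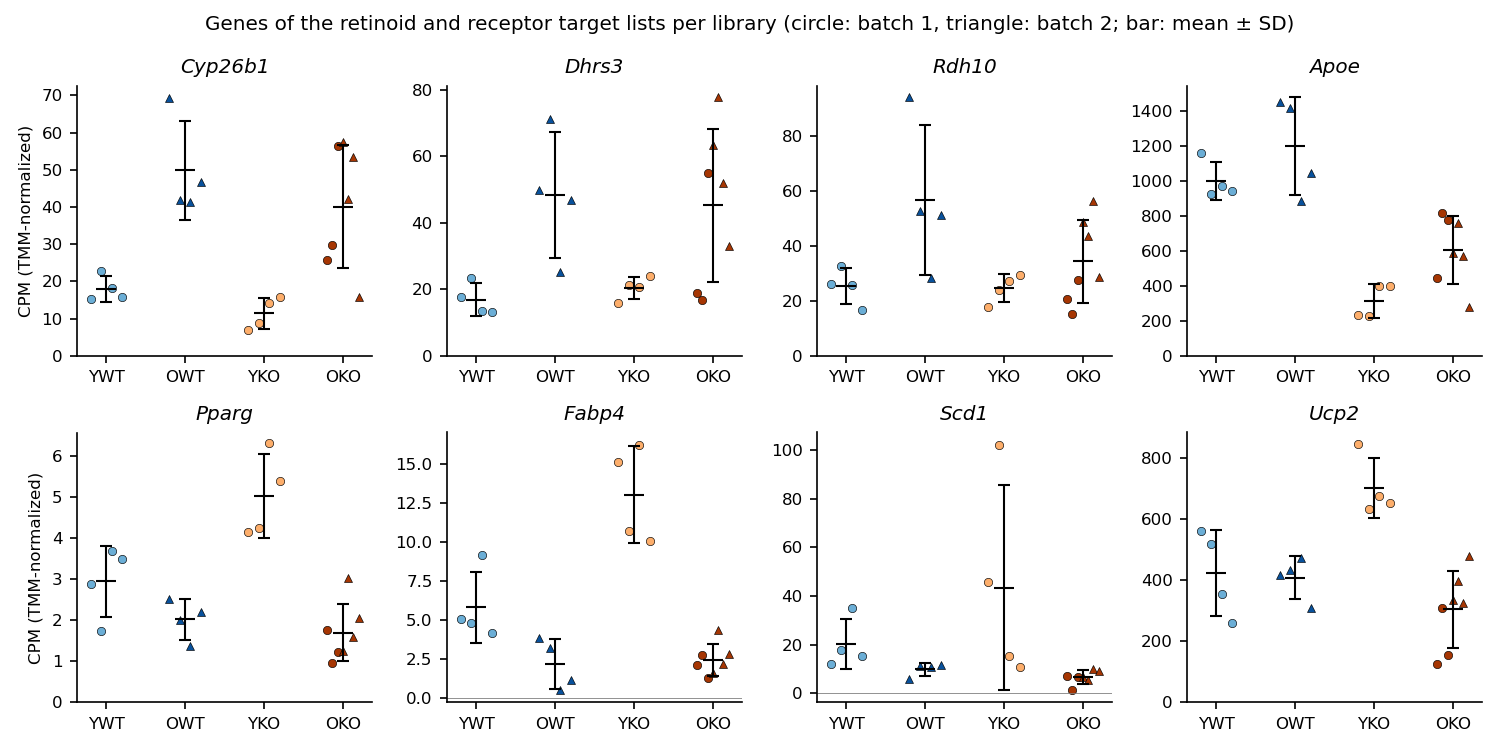
TMM-normalized CPM in the 19 libraries (circles batch 1, triangles batch 2), with the mean and SD of each group as a bar, for 4 genes of retinoid metabolism or LXR response and the 4 lipid genes that fell in OKO vs YKO. All OWT libraries lie above all YWT libraries in Cyp26b1 and Dhrs3, and all OKO libraries below all YKO libraries in Pparg, Fabp4, Scd1 and Ucp2.

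Retinoid metabolism was otherwise led by Aldh1a1, which makes retinoic acid from retinaldehyde, at 171 to 228 CPM in YWT, 237 to 444 in OWT, 125 to 257 in YKO and 168 to 369 in OKO. Its log2 fold change was 0.73 (SE 0.27, adjusted p = 0.937) in OWT versus YWT and 0.43 (SE 0.25) in OKO versus YKO, or 0.16 there without YKO1 and YKO2. Rdh11, a retinol dehydrogenase gene, averaged 47.3, 48.5, 41.4 and 37.6 CPM in YWT, OWT, YKO and OKO. Stra6, the retinol uptake receptor gene, was at most at 1.89 CPM. Of the retinoic acid binding proteins, Fabp5 was the most read, averaging 40.3, 41.3, 52.9 and 42.9 CPM. In OKO versus YKO edgeR called it down with batch as a covariate (-1.21) and with OKO of 1 batch only (-1.15). In these fits 19.1 and 17.9% of all tested genes were called. Dhrs3, a retinaldehyde reductase gene named here after its values were seen, was at 13.2 to 23.5 CPM in YWT and 25.2 to 71.3 in OWT without overlap (1.51, SE 0.40, adjusted p = 0.362), as were 2.24% of all tested genes with OWT higher. Rdh10, likewise chosen after its values were seen, had 1.17 (SE 0.37, adjusted p = 0.618). Of the 10 genes of retinoic acid synthesis 0 were called in any comparison by edgeR, with 3 at an unadjusted p under 0.05 in OWT versus YWT, 1 in OKO versus YKO and 1 in OKO versus OWT, beside 4.38, 15.8 and 8.14% of all tested genes. In OKO versus YKO other edgeR settings called Dhrs3 (upper-quartile normalization or a mean CPM of at least 5), Aldh1a1 (a mean CPM of at least 5) and Rdh11 (batch as a covariate, or OKO of 1 batch only). In the order named, these settings called 3.2, 12.1, 19.1 and 17.9% of all tested genes. DESeq2 called Dhrs3 in OWT versus YWT (1.48, adjusted p = 0.0198) and in OKO versus YKO (1.19, adjusted p = 0.00794), where edgeR without YKO1 and YKO2 gave 1.05 (adjusted p = 0.313).

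Among the LXR target genes Apoe, the apolipoprotein E gene, was the most read and had the largest difference between the young genotypes. It was at 1162, 925, 972 and 941 CPM in YWT and at 234, 230.5, 397 and 402 CPM in YKO, all below. The log2 fold change was -1.66 (SE 0.31), with an adjusted p of 0.0597, so that the main edgeR fit did not call it and DESeq2 did (-1.64, adjusted p = 9.71e-06). Other edgeR settings called it too, with adjusted p from 0.0141 to 0.0389. They were RLE or upper-quartile normalization, no filter, a CPM floor of 5, the compared groups only and batch as a covariate. These settings called 0.038 to 0.194% of all tested genes. It was not called with the sex of the study's table or the replicate number as a covariate. Without YKO1 and YKO2 it was -1.34 (adjusted p = 0.897). In old HSCs it was at 884 to 1453 CPM in OWT and 281 to 817 in OKO, again all below, at -0.99 (SE 0.26, adjusted p = 0.571). Without overlap were 3.01% of all tested genes in YKO versus YWT on the lower side and 0.359% in OKO versus OWT. With age in the knockout, OKO versus YKO, Apoe had 0.94 by edgeR (SE 0.28, adjusted p = 0.0989), or 0.62 without YKO1 and YKO2. There edgeR called it up with RLE or upper-quartile normalization, no filter and OKO of 1 batch only. Those settings called 1.18 to 17.9% of all tested genes. Scd2, the next most read of the list, averaged 252, 268, 290 and 196 CPM in YWT, OWT, YKO and OKO. Of the 12 genes of the list 6 were positive and 6 negative in OKO versus YKO. There DESeq2 called Apoe (1.01) and Abca1 (0.65) up and Scd1 (-2.65) and Fasn (-0.73) down, with 6.3% of all genes called. With a mean CPM of at least 5, edgeR called Apoe, Abca1 and Abcg1 up and Scd1 down, with 12.1% called. With batch as a covariate, it called Apoe up and Scd1, Scd2, Fasn, Srebf1 and Lpcat3 down, with 19.1% called.

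The cofactor genes were well read. Averages in YWT, OWT, YKO and OKO were 189, 218, 176 and 180 CPM for the corepressor Ncor1, 138, 157, 159 and 129 for the corepressor-bound deacetylase Hdac3, 189, 220, 137 and 186 for the coregulator Nrip1, and 82.4, 108, 80.5 and 89.7 for the coactivator Crebbp. Of the 6 genes listed as corepressors and the 7 listed as coactivators, Nrip1 among the latter, 0 were called in any comparison by edgeR, and 0 by DESeq2. In OKO versus YKO 2 genes of the corepressor list and 0 of the coactivator list had an unadjusted p under 0.05 by edgeR, beside 15.8% of all tested genes. Other edgeR settings called Tbl1xr1 (0.73) and Nrip1 (0.67) in OKO versus YKO where the mean CPM had to reach 5, and Gps2 (-0.99) and Hdac3 (-0.74) with batch as a covariate. Those settings called 12.1 and 19.1% of all tested genes. The thyroid hormone receptor gene Thra averaged 38.4, 45.9, 42.6 and 34.8 CPM and the xenobiotic receptor gene Nr1i3 30.0, 31.3, 36.0 and 26.5. In OKO versus YKO edgeR called Nr1i3 down with batch as a covariate (-0.86) and with OKO of 1 batch only (-0.80). In these fits 19.1 and 17.9% of all tested genes were called. Thrb, chosen after its values were seen, was at 4.54 to 12.6 CPM in YWT, 2.50 to 4.39 in YKO and 4.93 to 10.3 in OKO, with YKO below both without overlap, against 1.12% of all tested genes with OKO above YKO. Its log2 fold changes were -1.20 in YKO versus YWT (adjusted p = 0.413) and 1.15 in OKO versus YKO (adjusted p = 0.0595). DESeq2 called both (adjusted p = 0.0461 and 0.00101), and in OKO versus YKO edgeR did so with RLE or upper-quartile normalization, no filter, a CPM floor, batch as a covariate and OKO of 1 batch only. These edgeR settings called from 1.18 to 19.1% of all tested genes. Without YKO1 and YKO2 the values were -1.07 and 1.03, neither called.

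Of 16 PPAR target genes 2 were called in OKO versus YKO, Fabp4 and Ucp2, against 1.29% of all tested genes, and 11 of 16 had a negative log2 fold change in OKO versus YKO, with a median of -0.37 against 0.23 over all tested genes. With batch as a covariate, where 19.1% of all genes were called, Angptl4 (-2.26, adjusted p = 0.000863), Cat (-1.13), Plin2 (-1.10), Hadha (-0.96), Hadhb (-0.92) and Acadl (-0.68) were called too, and all of these except Acadl with OKO of 1 batch only. DESeq2, with 6.3% of all genes called, also called Cat down (-0.64) but Pdk4 of the same list up (1.18, adjusted p = 0.019). With a mean CPM of at least 5, where 12.1% were called, edgeR called Pdk4 up as well (1.28, adjusted p = 0.0306). Cpt1a, which admits fatty acids to mitochondria, was the second most read after Ucp2, averaging 230, 326, 240 and 284 CPM in YWT, OWT, YKO and OKO. The 8 vitamin D genes were near the limit of detection apart from Cyp27a1 (means of 3.82 to 5.37 CPM) and Cyp2r1 (3.78 to 5.23), both of which hydroxylate vitamin D, and 0 were called in any comparison by edgeR or DESeq2, with 1 at an unadjusted p under 0.05, in OKO versus OWT. In OWT versus YWT, YKO versus YWT, OKO versus OWT and the interaction 0 of the 77 pathway genes were called by edgeR, with 5, 6, 9 and 7 at an unadjusted p under 0.05, beside 4.38, 4.59, 8.14 and 4.62% of all tested genes.

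The genes whose CPM followed each receptor most closely across the 19 libraries were taken from 11109 candidates by Spearman's rho, a description in which the points share group, batch and library. Vdr was followed by Efna1 (0.98), Card10 (0.95) and Sema3f (0.93), and Nr1h2 by Zdhhc7 (0.98), Tm9sf4 (0.96) and Ovca2 (0.96). Rarg was followed by Trim62 (0.95), Celsr1 (0.92) and Fzd6 (0.91), and Rarb by Ghr (0.91), Mylk (0.91) and Arhgef26 (0.90). For Rxrb they were Fiz1 (0.95), Gorasp1 (0.94) and Tsen54 (0.92), for Rxra Abhd14b (0.90), Fchsd1 (0.90) and Nynrin (0.90), for Rara C2cd2l (0.92), Cdc42se2 (0.89) and Atf6 (0.88), and for Nr1h3 Cyren (0.86), Arhgef10l (0.85) and Sec14l1 (0.85). Among the receptors themselves the closest pairs were Rxrb with Nr1h2 (0.83), Rarg with Vdr (0.83), Rarb with Vdr (0.73) and Rxra with Rarg (0.71), and Rarb had 0.79 with Cyp26b1.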

How the data were processed

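The authors trimmed reads with Trim Galore 0.4.3 and cutadapt, aligned them with STAR to mm10 using a GENCODE M22 index, and deposited raw counts of reads per gene symbol from featureCounts. Handling of strand, mates, multiple hits and overlapping genes was not given in the sources used here. Libraries were made with the SMART-Seq v4 kit. The 10 bisulfite samples were not analysed here.

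Counts of 19 libraries were filtered with filterByExpr and TMM-normalized. The edgeR 4.0.16 quasi-likelihood test (R 4.3.3) was fitted to all libraries, with a mean for each of the groups and without covariates. P-values were adjusted by Benjamini-Hochberg over all tested genes, and a call needed a fold change over 1.5 at an adjusted p under 0.05 (for the interaction, the adjusted p alone). DESeq2 1.42.0, the tool of the study, was an alternative. RPKM used the summed exon length of GENCODE M21, which pairs symbols with positions on mm10.

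The receptors, gene lists and naming rule were chosen with earlier results of these data known. The rule named all receptors, each called pathway gene, the 2 pathway genes with the highest mean CPM in each list, and for receptors with a mean CPM of at least 5 the 3 genes with the highest rho. Exceptions are stated, and 1 gene that the rule named is not reported here.

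In data simulated from these libraries for OKO versus YKO, with 31836 genes, edgeR recovered 26 of 100 changes of 2-fold and 93 of 100 of 4-fold with 5 false calls, and DESeq2 recovered 42 and 97 with 43.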

Additional observations from a re-analysis of the deposited data

Results flagged for a closer look

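Among the 40 sets of values formed by 10 receptors in 4 groups, 2 held a library far from the others, as many as chance gives at 1 in 20. Nr1h2 was at 107 CPM in the library labelled YKO2, whereas the other 3 YKO libraries all stood at 118 CPM. Ppard was at 6.10 CPM in OKO1, above the 2.13 to 3.79 CPM of the other 6 OKO libraries, and OKO1 also had the highest TMM factor of all libraries (1.83) and the most genes detected (47901).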

How the results depend on the processing

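The limits are few libraries per group, age confounded with batch in wild-type HSCs, and a test that recovered 26 of 100 simulated 2-fold changes in OKO versus YKO. Of the receptor genes called in OKO versus YKO, edgeR gave 0, against 2 with DESeq2, 2 with a CPM floor of 5 (the mean over libraries), 2 with a batch covariate, 3 with OKO of 1 batch only, 1 without the libraries with Y-linked reads and 0 to 1 when each library was left out in turn (1 without OKO7). In the other 4 comparisons it was 0 under all alternatives run. Of the pathway genes, 5 were called in OKO versus YKO, against 13 with DESeq2, 9 with upper-quartile normalization, 13 with a CPM floor of 5, 3 with the compared groups only, 23 with batch as a covariate, 22 with OKO of 1 batch only, 3 without the libraries with Y-linked reads, 0 without YKO1 and YKO2, and 3 (without YKO2 or YKO3) to 10 (without OKO7) when each library was left out. In YKO versus YWT 0 pathway genes were called, against 2 with DESeq2, 1 each with RLE and upper-quartile scaling, no filter, a CPM floor of 5, the compared groups only and batch as a covariate, and 0 to 1 when each library was left out. In OWT versus YWT it was 2 with DESeq2 and 1 with the compared groups only. All tested genes called in OKO versus YKO numbered 434, against 2122 with DESeq2, 702 with RLE, 1078 with upper-quartile normalization, 1502 with a CPM floor of 5, 115 with the compared groups only, 6420 with batch as a covariate, 6285 with OKO of 1 batch only, 242 with the sex of the study's table, 280 without the libraries with Y-linked reads and 21 without YKO1 and YKO2, and from 102 (without YKO1) to 1822 (without OKO7) when each library was left out. With DESeq2 they numbered 135 against 1 in OWT versus YWT, 136 against 9 in YKO versus YWT, 73 against 11 in OKO versus OWT and 7 against 0 in the interaction, which had 163 with OKO of 1 batch only. The cause of these shifts was not tested. Leaving out the libraries with Y-linked reads, or YKO1 and YKO2, was chosen after seeing the data.

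Replicate numbers are shared between groups, but same-numbered libraries did not deviate together (24 pairs, mean r -0.0885, from -0.47 to 0.304). With the replicate number as a block, 0 receptor genes and 7 pathway genes were called in OKO versus YKO, and Rarb stood at 1.41 (adjusted p = 0.0655). The block moved the calls over all genes in OKO versus YKO to 1774. It turned the sign of Rxra in OKO versus YKO (-0.0091) and of Rarb (0.077) and Fabp4 (-0.074) in OKO versus OWT.

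Other estimates that changed sign, none of them called in either form, follow on the log2 scale. In OWT versus YWT they were Rxra (-0.029), Rara (-0.41), Nr1h2 (-0.60) and Ppard (0.50) with batch as a covariate, and Nr1h2 (-0.060) and Ppard (0.040) without the libraries with Y-linked reads. In YKO versus YWT they were Rxra (0.16), Rarb (0.25), Vdr (0.33) and Scd1 (-0.66) without YKO1 and YKO2, and Rxrb (-0.23), Rxrg (0.27), Nr1h2 (-0.042) and Ppard (0.15) without the libraries with Y-linked reads. There Nr1h3 changed sign with no filter (-0.0072), with a CPM floor of 5 (-0.026) and with the sex of the study's table (-0.017), and Vdr with DESeq2, RLE or upper-quartile normalization (0.016 each). In OKO versus YKO they were Rxra with batch as a covariate (-0.17), with OKO of 1 batch only (-0.099) and without YKO1 and YKO2 (-0.12), and Rara in the last of these (0.0032).

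In OKO versus OWT Rxrb was at 0.083 with DESeq2 and with RLE, 0.18 with upper-quartile normalization, 0.023 with no filter, 0.21 with a CPM floor of 5, 0.058 with the compared groups only, 0.14 with batch as a covariate, 0.17 with OKO of 1 batch only and 0.029 without the libraries with Y-linked reads. Vdr was at 0.054 with DESeq2 and with RLE, 0.14 with upper-quartile normalization, 0.18 with a CPM floor of 5, 0.034 with the compared groups only, 0.17 with batch as a covariate and 0.19 with OKO of 1 batch only. Rarb was at 0.017 with DESeq2 and with RLE, 0.17 with upper-quartile normalization, 0.23 with a CPM floor of 5 and 0.024 with the compared groups only. Nr1h2 was at 0.054 with upper-quartile normalization, 0.079 with a CPM floor of 5, 0.12 with batch as a covariate and 0.15 with OKO of 1 batch only, and Rara at 0.047 and 0.076 in the last 2.

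In the interaction Rxrb was at 0.023 with DESeq2 and with RLE, 0.13 with upper-quartile normalization, 0.022 with no filter, 0.21 with a CPM floor of 5, 0.10 with batch as a covariate and 0.26 without the libraries with Y-linked reads. Under the same settings, in that order, Rarg was at 0.044, 0.045, 0.17, 0.043, 0.27, 0.056 and 0.14, and Vdr at 0.038, 0.038, 0.13, 0.032, 0.22, 0.17 and 0.46. Rarb was at -0.087 with batch as a covariate and -0.37 without YKO1 and YKO2, and Nr1h3 at -0.072 without them.

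When each library was left out in turn, estimates that crossed 0 ranged, in OKO versus OWT, from -0.13 to 0.61 for Fabp4, -0.050 to 0.39 for Nr1h3, -0.31 to 0.065 for Rarb, -0.13 to 0.084 for Rxrb and -0.27 to 0.086 for Vdr. In YKO versus YWT they ranged from -0.21 to 0.22 for Nr1h3, -0.30 to 0.058 for Rxra, -0.051 to 0.095 for Rxrb, -1.04 to 0.48 for Rxrg and -0.18 to 0.17 for Vdr. In the interaction they ranged from -0.087 to 0.45 for Nr1h3, -0.22 to 0.19 for Rarg, -0.17 to 0.066 for Rxrb and -0.27 to 0.15 for Vdr, in OKO versus YKO from -0.14 to 0.37 for Rxra, and in OWT versus YWT from -0.23 to 0.11 for Ucp2. Rarb in OKO versus YKO ranged from 0.87 (without YKO1) to 1.53 (without YKO4).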
